A study of Mus musculus with 8 samples.

Results

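Ribosome footprints of 10 genes of the protein-synthesis machinery were followed across 8 mouse brain libraries. The genes code for the elongation factors Eef1a1 (ENSMUSG00000037742), Eef1a2 (ENSMUSG00000016349), Eef1b2 (ENSMUSG00000025967), Eef1d (ENSMUSG00000055762), Eef1g (ENSMUSG00000071644) and Eef2 (ENSMUSG00000034994). They also code for the poly(A)-binding protein Pabpc1 (ENSMUSG00000022283), the translationally controlled tumour protein Tpt1 (ENSMUSG00000060126) and the release factors Etf1 (ENSMUSG00000024360) and Gspt1 (ENSMUSG00000062203). They were chosen by name, as 10 of the 21874 genes with a protein-coding transcript in the table, and each is represented by its most covered protein-coding transcript of the 32 that the genes have together. All 10 passed the filter on low counts in each of the 3 comparisons.

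The footprints are RNA fragments that ribosomes shield from RNase, sequenced from brains at postnatal day 5. The mice were of the "Taiwanese" line, congenic on FVB, which models spinal muscular atrophy (SMA), a disease of motor neurons brought about by too little SMN protein. Phenotypically normal Smn+/-; SMN2tg/0 littermates gave 3 SMN immunoprecipitates and 1 IgG immunoprecipitate. RNase I-treated ribosomes of these brains were pelleted and pulled down with anti-SMN or with unspecific IgG. The 2 RiboLace libraries, which capture ribosomes in active translation, and the 2 polysome libraries, from sucrose gradients, came from early symptomatic Smn-/-; SMN2tg/0 brains. All mice therefore carried the human SMN2 transgene on 1 allele and lacked at least 1 working mouse Smn allele. No SMN or IgG library came from SMA brain and no RiboLace or polysome library from a control brain, so genotype and protocol cannot be told apart where immunoprecipitates are set against polysomes. Libraries of a group are labelled as biological replicates.

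Reads on coding genes numbered 133295 to 237760 in the SMN libraries, 206690 in the IgG library, 39375 to 47846 in RiboLace and 1661834 to 2295393 in polysomes. A gene's level is given below as CPM, its reads per 1e+06 of these. A count of 0 allows a level of up to 12.6 to 22.5 CPM in the SMN libraries (3 counts), 14.5 CPM in IgG, 62.7 to 76.2 CPM in RiboLace and 1.31 to 1.81 CPM in polysomes. SMN replicate 2 stood apart, with a chi-square per gene of 4.36 and 4.27 against SMN replicates 1 and 3, which differed from each other by 1.51. IgG and SMN replicate 3 differed by 1.38. All 6 neuronal markers (Tubb3, Map2, Snap25, Stmn2, Syt1, Rbfox3) had reads in every library, with a summed level of 7104 to 7609 CPM in SMN, 7649 CPM in IgG, 8863 to 9614 CPM in RiboLace and 4824 to 5238 CPM in polysomes. In bulk tissue, fewer cells of a type and less RNA per cell cannot be told apart.

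During elongation, eEF1A in its GTP form brings aminoacyl-tRNA to the ribosome, the eEF1B complex recharges eEF1A with GTP, and eEF2 moves the ribosome along by a codon. At a stop codon eRF1 (Etf1) reads the codon and eRF3 (Gspt1), a GTPase, helps it release the chain. Many of these messages belong to the TOP class, which begin with a C followed by a run of pyrimidines and whose translation is controlled through mTOR and LARP1. In the mouse, Eef1a1 is the widespread form of eEF1A and Eef1a2 is the form of mature neurons and muscle, which replaces Eef1a1 there after birth.

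The bases around the annotated transcription start show how far the TOP motif is visible for these genes. RefSeq windows of 30 bases (build GRCm38.p6, 5 bases before the start to 25 from it, read 5′ to 3′ on the gene's strand) were at hand for 6 of the genes, namely Eef1a1, Eef1a2, Eef1b2, Eef2, Gspt1 and Tpt1. The 3 genes whose footprints are most abundant are printed, since the results turn on them, with capitals marking the longest C followed by at least 4 bases that are each C or T, searched on the gene's strand only.
Eef1a1, chr9:78481700-78481729, minus strand: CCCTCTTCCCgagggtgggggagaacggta
Eef1a2, chr2:181156991-181157020, minus strand: tctgcgttctcgctcactggttCTCTCCCT
Eef2, chr10:81176626-81176655, plus strand: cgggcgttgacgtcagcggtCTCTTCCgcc
Such a tract lay exactly at the annotated start in 0 of the 6 genes, against 2.24% of 19449 start windows of all genes and 17.1% of 76 windows of cytosolic ribosomal proteins. With the C allowed within 5 bases of the start, 1 of the 6, Eef1a1, had one, against 18.7% of all windows and 40.8% of ribosomal protein windows. The marked Eef1a1 tract, the longest match, began at the first base of its window, 5 bases before the annotated start, and may begin further upstream. Its C just before the annotated start is also followed by at least 4 bases that are each C or T. Anywhere in the 30 bases, 3 of the 6 had one, against 34.8% of all windows and 61.8% of ribosomal protein windows. The windows describe the annotation and do not show where the messages begin, and a start placed a few bases off moves the count.

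Per kilobase of coding sequence, the 10 genes spanned a wide range of footprint levels, and Eef1a1, Eef1a2 and Eef2 led in every group. Eef1a1 averaged 1303 CPM per kilobase in SMN libraries, 1581 in IgG, 1274 in RiboLace and 577 in polysomes. Eef2 averaged 1112 CPM per kilobase in SMN libraries, 1012 in IgG, 529 in RiboLace and 529 in polysomes. Eef1a2 averaged 859, 713, 711 and 675 CPM per kilobase in the same order, and by group mean was the highest of the 10 only in polysomes. With counts summed over all coding transcripts, Eef1a1 was above Eef1a2 in polysomes too, where Eef1a2 made up 38.5% and 41.2% of the pair. Tpt1, a small abundant protein tied to growth, came next in every group, at 250, 317, 227 and 214 CPM per kilobase. Eef1d was lowest in every group, at 27.9, 29.3, 46.7 and 26.2 CPM per kilobase for the long isoform chosen. Summed counts put Eef1d above Eef1g in polysomes, at 27.0% against 24.3% of Eef1b2, Eef1d and Eef1g together. The lowest rank of Eef1d and the ratio that follows therefore hold for the chosen transcripts only, and neither was taken on summed counts. The ratio of the highest to the lowest of the 10, taken within each library, was 52.9 ± 4.26 in SMN (SD, n = 3), 54.0 in the IgG library, 26.9 ± 4.80 in RiboLace and 25.7 ± 0.315 in polysomes (SD, n = 2 each). Per kilobase of transcript the RiboLace ratio was 43.0 ± 22.1 (SD, n = 2).

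**Figure D1:**
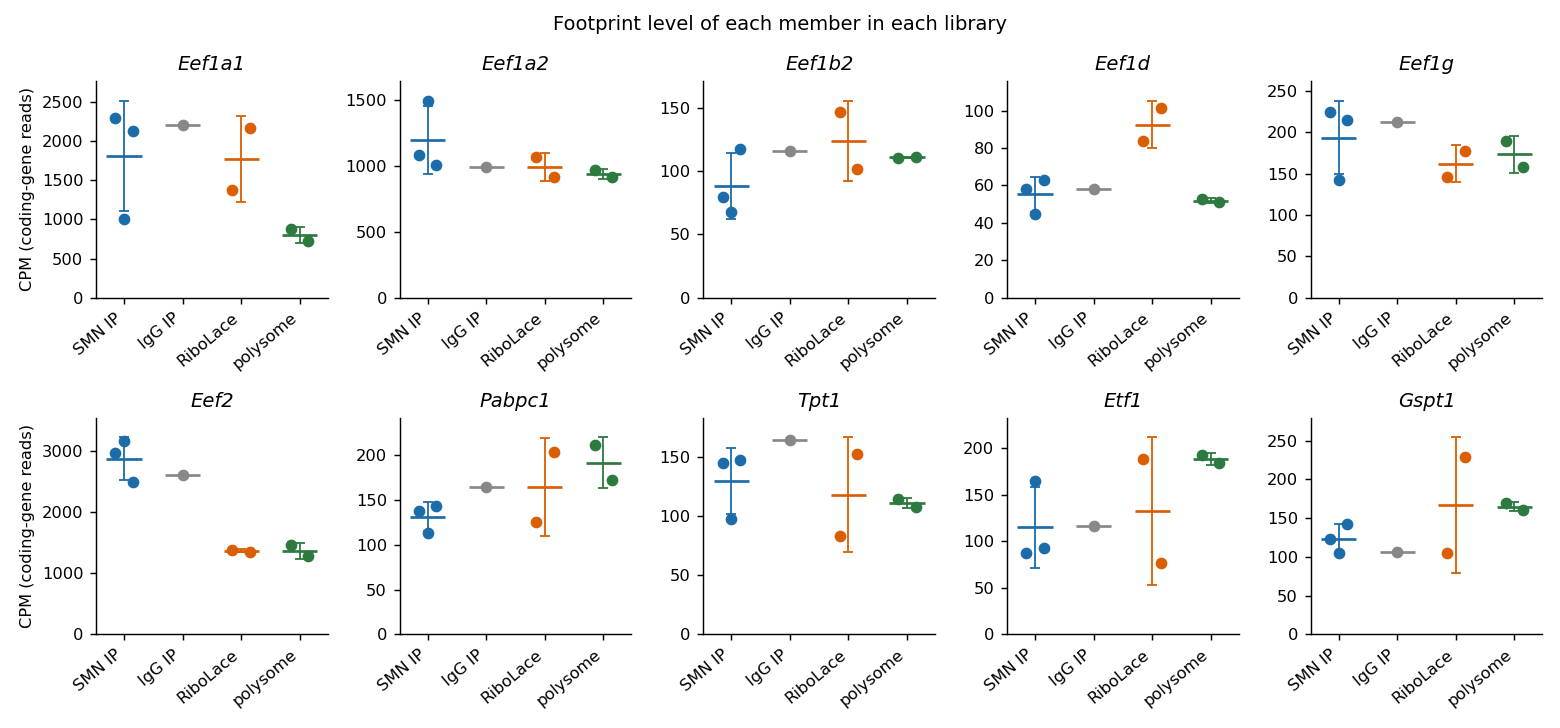
Footprint level in CPM of each of the 10 genes, 1 panel per gene with its own axis from 0, for SMN immunoprecipitates (n = 3), IgG (n = 1), RiboLace (n = 2) and polysomes (n = 2). Points are libraries, lines are means and bars are SD; the Eef1a1 and Eef2 panels show the immunoprecipitates above the polysomes.

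Eef1a1 footprints rose in RiboLace over polysomes. They stood at 1379 and 2159 CPM in RiboLace, against 874 and 728 CPM in polysomes, and the groups did not overlap. The mean level was 1769 ± 551 CPM in RiboLace and 801 ± 103 CPM in polysomes (SD, n = 2 each), a ratio of 2.21. The fitted log2 fold change was 1.08 (SE 0.17, edgeR quasi-likelihood test, adjusted p = 1.01e-07). The fit pools spread over both groups and over genes, so this SE and p do not measure the spread between the 2 RiboLace libraries alone. Of the 10 genes, 1 rose and 0 fell, where 1.31% of 10807 genes rose and 0.925% fell. These shares include 781 genes without a read in a group, and they depend on the filter. At a minimum count of 50, 258 of 4923 genes rose and 75 fell, and of the 10 genes again 1 rose and 0 fell. The summed level of 4 globins was 5267 to 6375 CPM in RiboLace, against 1897 to 2569 CPM in polysomes, and its part in the result was not tested. The call was lost without RiboLace replicate 2, the higher of the pair (log2 fold change 0.72, edgeR adjusted p = 0.397), and with limma-voom (adjusted p = 0.380) or with all 8 libraries in the fit (edgeR adjusted p = 0.0607).

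Eef1a1 also rose in SMN immunoprecipitates over the same polysome libraries, so the 2 results share them. The SMN libraries had 2293, 1005 and 2132 CPM, against 874 and 728 CPM in polysomes. SMN replicate 2 was the low one, and even so lay above both polysome libraries. The log2 fold change was 1.45 (SE 0.32, edgeR adjusted p = 0.00554). The IgG pull-down, with no SMN antibody, held 2197 CPM of Eef1a1 (exact Poisson 95% interval 1999 to 2408, which covers counting error only), 2.74 times the polysome mean. The log2 ratio of IgG to polysomes (on CPM + 1) was 1.45, at percentile 96.7 of 6484 genes, whose median was -0.33. SMN immunoprecipitates over IgG gave a log2 fold change of -0.26 (SE 0.45, edgeR adjusted p = 0.999), with the IgG library inside the SMN range.

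Eef2 rose in SMN immunoprecipitates over polysomes, and its level in RiboLace lay among the polysome values. It had 2959, 3158 and 2481 CPM in SMN libraries, against 1454 and 1275 CPM in polysomes. The log2 fold change was 1.33 (SE 0.25, edgeR adjusted p = 0.00185). The IgG library held 2608 CPM (exact Poisson 95% interval 2392 to 2838), within the SMN range and 1.91 times the polysome mean. SMN over IgG gave 0.15 (SE 0.46, adjusted p = 0.999, edgeR). In RiboLace, Eef2 had 1379 and 1346 CPM, against 1454 and 1275 CPM in polysomes, and the fitted difference on the log2 scale was -0.04 (SE 0.19, edgeR adjusted p = 0.967).

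Of the 10 genes, 2 rose and 0 fell in SMN immunoprecipitates over polysomes, where 16.4% of 6484 genes rose and 11.1% fell. Scaled to library totals, 9.81% of all genes rose and 24.3% fell, the median of all genes moved to -0.31 from -0.02, and Eef1a1 and Eef2 were still called, at log2 fold changes of 1.15 and 1.04 (edgeR adjusted p = 0.0150 and 0.00657). Etf1 was then called lower, at -0.80 (edgeR adjusted p = 0.0260). Without SMN replicate 2, 5 of the 10 rose, where 16.0% of all genes did, and 1 fell, where 14.5% did. The log2 fold changes were then 1.70 for Eef1a1, 1.22 for Eef2, 0.64 for Tpt1, 0.58 for Eef1g, 0.38 for Eef1a2 and -0.82 for Etf1, with edgeR adjusted p of 0.0274 or less. Eef1a1 lost the call without SMN replicate 3 (edgeR adjusted p = 0.0570), where 376 of 10827 genes rose. Both Eef1a1 and Eef2 lost it without either polysome library, which leaves 1 library in that group. In those fits fewer of all genes were called too.

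**Figure D2:**
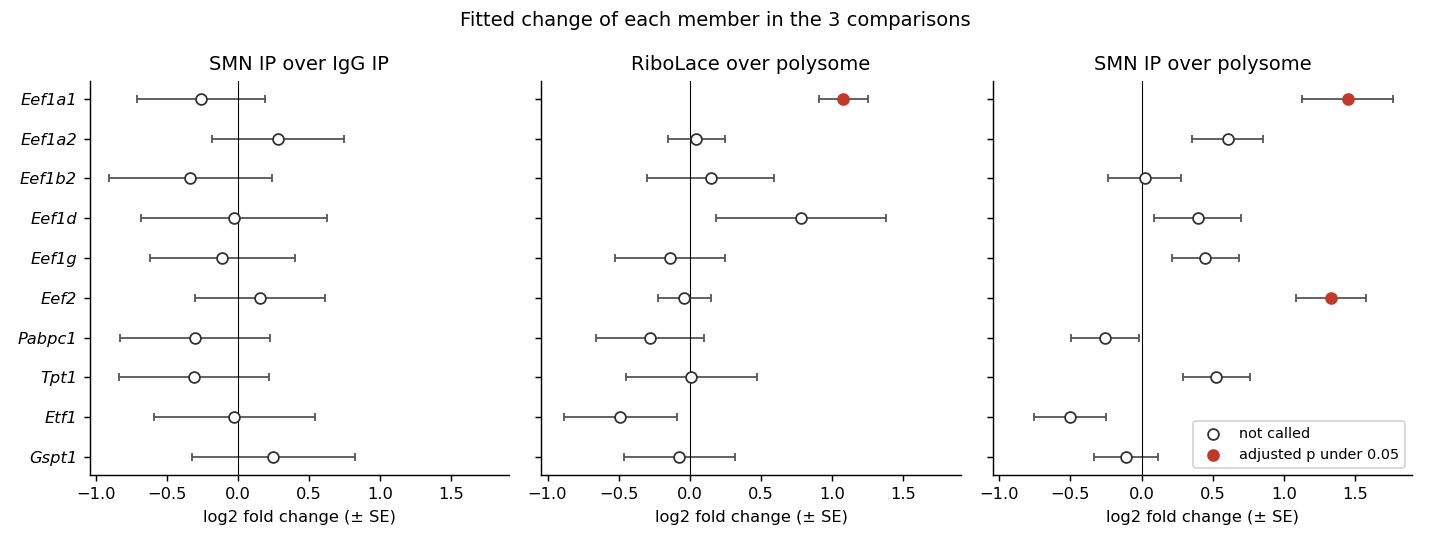
Fitted log2 fold change with its SE for the 10 genes in the 3 comparisons, SMN immunoprecipitate over IgG, RiboLace over polysome and SMN immunoprecipitate over polysome. Filled points have an edgeR adjusted p under 0.05, which holds for Eef1a1 over polysomes in 2 panels and for Eef2 in 1, and no gene is called against IgG.

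Of the 10 genes, 0 were called in SMN immunoprecipitates over IgG with edgeR, where 0.0181% of 5517 genes were called in either direction. At an unadjusted p under 0.05 the count was also 0, and DESeq2 and limma-voom called 0. The log2 fold changes ran from -0.33 for Eef1b2 to 0.28 for Eef1a2, with SEs of 0.45 to 0.66, and their median was -0.07 beside 0.03 for all genes. The single IgG library stands for its whole group, and the fit takes its spread from the SMN libraries. The SMN libraries lay wholly above the IgG value for 1 of the 10, Eef1a2, where 21.5% of all genes did, and wholly below it for 2, Pabpc1 and Tpt1, where 23.6% did.

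Eef1a2, the neuronal form, was not called in any of the 3 comparisons. Eef1a1 and Eef1a2 code for near-identical proteins, and Eef1a1 has many processed pseudogenes, so reads that match several of these genes make both levels uncertain. Eef1a2 had 1085, 1493 and 1009 CPM in SMN libraries, against 992 CPM in IgG. RiboLace held 1066 and 914 CPM, against 965 and 913 CPM in polysomes, and these groups overlapped. SMN replicate 2, which was lowest for Eef1a1, was highest for Eef1a2. The log2 fold change over polysomes was 0.61 for SMN (SE 0.25, edgeR adjusted p = 0.0843) and 0.05 for RiboLace (SE 0.20, edgeR adjusted p = 0.959). With DESeq2 and limma-voom the SMN change was called, at adjusted p = 0.0407 and 0.0340.

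The balance of the Eef1a pair differed between libraries. Per coding length, Eef1a2 made up 32.1%, 59.7% and 32.1% of the pair in SMN libraries, 31.1% in IgG, 43.5% and 29.7% in RiboLace and 52.4% and 55.6% in polysomes. SMN replicate 2 had the largest share of the 8 libraries, and the other 5 libraries outside the polysomes lay below both polysome values. The group means were 41.3% ± 16.0 in SMN (SD, n = 3), and 36.6% ± 9.78 in RiboLace and 54.0% ± 2.22 in polysomes (SD, n = 2 each). The IgG share rests on 205 of 659 reads (exact binomial 95% interval 27.6% to 34.8%, counting error only). Summed over all coding transcripts the mean shares were 30.3% in SMN, 20.1% in IgG, 26.9% in RiboLace and 39.8% in polysomes. The polysomes were still highest by mean, but Eef1a1 was then the larger form in every library. Eef1a1 has more coding transcripts than Eef1a2, and the part of reads shared between them was not tested. Markers of muscle, the other tissue of Eef1a2, 5 in number, had a summed level of 135 to 231 CPM in SMN, 194 CPM in IgG, 254 to 376 CPM in RiboLace and 137 to 152 CPM in polysomes. Ckm was at 0 reads in all SMN libraries and in IgG. The neuronal marker sum given above was lower in polysomes than in every other library. The Eef1a2 share of the chosen transcripts was above 50% in both polysome libraries, but 38.5% and 41.2% with summed counts. The part of neurons in the share was not tested.

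**Figure D3:**
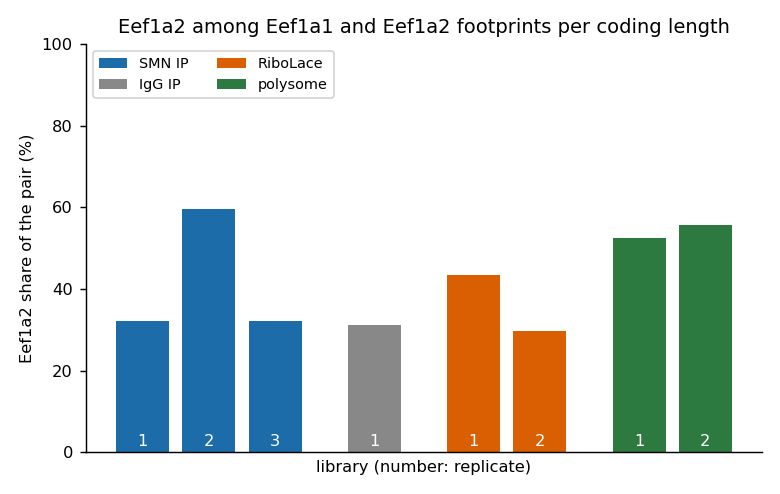
Share of Eef1a2 in the summed Eef1a1 and Eef1a2 footprints per coding length, in percent from 0 to 100, 1 bar per library with its replicate number. The polysome bars stand at 52.4% and 55.6%, and SMN replicate 2 at 59.7% stands apart from SMN replicates 1 and 3.

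The subunits of eEF1B, the exchange factor of eEF1A, were not called in any of the 3 comparisons. Eef1b2, a catalytic subunit, had 79.6, 67.5 and 118 CPM in SMN libraries, against 116 CPM in IgG, and 146 and 102 CPM in RiboLace, against 111 and 111 CPM in polysomes. Eef1g, the structural subunit, had 224, 143 and 215 CPM in SMN libraries, against 213 CPM in IgG, and 146 and 178 CPM in RiboLace, against 190 and 158 CPM in polysomes. For both genes the groups overlapped in every comparison. Eef1d, the other exchange subunit, had 57.9, 45.0 and 63.1 CPM in SMN libraries, against 58.1 CPM in IgG, and 83.6 and 102 CPM in RiboLace, against 53.0 and 51.0 CPM in polysomes.

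The Eef1d values in RiboLace lay above both polysome values, but rest on 4 reads per RiboLace library. The log2 fold change was 0.78 (SE 0.60, edgeR adjusted p = 0.544). RiboLace lay wholly above polysomes for 2 of the 10 genes, Eef1a1 and Eef1d, where 18.6% of all genes did, and wholly below for 0, where 36.7% did. Of the genes tested, 781 had no read in a group, and 3 counts are 62.7 to 76.2 CPM in RiboLace. Low reads thus enter the 36.7%, and no conclusion is drawn from the 0. The transcript chosen for Eef1d codes for the long form, known in brain and testis for a role in the heat-shock response. With the reads of both polysome libraries summed, the chosen transcript had 72.1 reads per kilobase of transcript. Another long-form transcript had 83.2 and a short-form transcript 80.2. Since the forms share sequence, their reads cannot be assigned to one of them.

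Within the complex, per coding length, Eef1d, as its chosen long form, took the smallest share. Eef1b2 made up 42.4% ± 5.09 in SMN (SD, n = 3), 47.2% in IgG, 51.5% ± 9.82 in RiboLace and 50.9% ± 2.88 in polysomes (SD, n = 2 each). Eef1g made up 48.4% ± 4.91, 44.7%, 35.2% ± 7.12 and 41.0% ± 3.10 in the same order (SD, n as above). Eef1d made up 9.22% ± 0.605, 8.08%, 13.3% ± 2.70 and 8.15% ± 0.222. With counts summed over all coding transcripts the order turned. The Eef1d share was then 31.8% in SMN, 23.2% in IgG, 32.0% in RiboLace and 27.0% in polysomes. Eef1g had the smallest share in SMN at 26.8%, in RiboLace at 19.1% and in polysomes at 24.3%. Eef1d has more coding transcripts than Eef1b2 or Eef1g, and each sum was divided by the coding length of the chosen transcript. The part of reads shared between transcripts in this turn was not tested.

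Neither release factor was called in any of the 3 comparisons with all libraries and TMM scaling. Etf1 was called lower in SMN over polysomes under 2 settings given above. Etf1 had 86.8, 165 and 92.5 CPM in SMN libraries, against 193 and 184 CPM in polysomes, and the groups did not overlap (log2 fold change -0.50, SE 0.25, edgeR adjusted p = 0.148). Gspt1 had 123, 105 and 143 CPM in SMN libraries, against 169 and 161 CPM in polysomes, again with no overlap (log2 fold change -0.11, SE 0.23, edgeR adjusted p = 0.741). The IgG library held 116 CPM of Etf1 and 106 CPM of Gspt1, at percentiles 35.6 and 38.1 of the IgG to polysome ratio. In RiboLace, Etf1 stood at 188 and 76.2 CPM and Gspt1 at 105 and 229 CPM, each from 9 or fewer reads per library, so RiboLace replicate 1 was the higher for Etf1 and replicate 2 for Gspt1. Etf1 took 56.2% ± 11.6 of the pair per coding length in SMN (SD, n = 3), 61.3% in IgG, 52.5% ± 28.1 in RiboLace and 62.4% ± 0.070 in polysomes (SD, n = 2 each). With counts summed over all coding transcripts Etf1 took the smaller part in every group by mean, at 40.2% in SMN, 42.6% in IgG, 43.3% in RiboLace and 45.2% in polysomes. Another Gspt1 coding transcript had 281 and 367 polysome reads, beside 281 and 369 for the chosen one. The other Etf1 coding transcript is 108 bases long, and the part of reads shared between transcripts was not tested.

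Pabpc1, which coats the poly(A) tail and binds the initiation complex and eRF3, had 137, 113 and 143 CPM in SMN libraries, against 164 CPM in IgG. RiboLace held 125 and 203 CPM, against 211 and 172 CPM in polysomes. The SMN libraries lay below both polysome libraries, with a log2 fold change of -0.26 (SE 0.24, edgeR adjusted p = 0.435). SMN libraries lay wholly above polysomes for Eef1a1, Eef1a2 and Eef2, 3 of the 10, where 15.1% of all genes did. They lay wholly below for Etf1, Gspt1 and Pabpc1, again 3, where 38.6% did. Overlaps, here and for the release factors, were taken on CPM, without the TMM scaling of the fold changes.

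Tpt1 had 145, 97.5 and 147 CPM in SMN libraries, against 164 CPM in IgG, and 83.6 and 152 CPM in RiboLace, against 114 and 108 CPM in polysomes. Its log2 fold change over polysomes was 0.53 for SMN (SE 0.23, edgeR adjusted p = 0.103) and 0.01 for RiboLace (SE 0.46, edgeR adjusted p = 0.998). Tpt1 is uncertain because the table also lists processed pseudogenes close to it in sequence. Tpt1-ps3 had 176 and 209 polysome reads, beside 190 and 248 for Tpt1 itself, and the treatment of reads that match both is not stated in the sources used here.

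Other genes of translation put these values beside their pathway. Against IgG, 0 genes of 6 lists were called with edgeR. The gene of smallest p in each list had a log2 fold change of 0.67 (Eefsec), -1.10 (Hbs1l), 0.59 (Gfm1), 1.32 (Eif3k), -0.93 (Pabpn1) and -0.74 (Rpl9), each with an adjusted p of 0.999. In RiboLace over polysomes, where 2.24% of all genes were called in either direction, 2 of the 18 tested TOP messages other than ribosomal proteins were called, with no call among 9 elongation factors and their modifiers, 15 termination, recycling and rescue factors, 7 mitochondrial factors, 10 poly(A)-binding proteins and partners and 82 cytosolic ribosomal proteins. Npm1, a nucleolar chaperone, rose, at 293 and 279 CPM in RiboLace, against 126 and 118 CPM in polysomes (log2 fold change 1.20, SE 0.33, edgeR adjusted p = 0.0234). Eif4b, which helps the initiation helicase eIF4A, fell, at 83.6 and 152 CPM in RiboLace, against 354 and 330 CPM in polysomes (log2 fold change -1.61, SE 0.40, edgeR adjusted p = 0.00492). Of the lists without a call, the gene of smallest p was Abce1, which splits ribosomes after termination, at -1.29 (edgeR adjusted p = 0.0782), Paip2, an inhibitor of Pabpc1, at 1.34 (edgeR adjusted p = 0.161), and Rpl38 at 1.10 (edgeR adjusted p = 0.0954). For 2 lists it was Eef2k, the kinase that inactivates eEF2, and Tsfm, the mitochondrial exchange factor, both with 0 reads in RiboLace. Eef2k had 63.2 and 54.9 CPM in polysomes (edgeR adjusted p = 0.0766). Ribosomal proteins had a median log2 fold change of 0.17, beside -0.01 for the 10 genes and -0.29 for all genes. The median of all genes depends on those with few reads, and was -0.15 with the 781 genes without a read in a group set at their bound, -0.058 at a minimum count of 50 and -0.72 without a filter.

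In SMN immunoprecipitates over polysomes, 27 of 77 ribosomal proteins rose and 2 fell, where 16.4% of all genes rose and 11.1% fell. Their log2 fold changes had a median of 0.47, beside 0.42 for the 10 genes and -0.02 for all genes. Rpl3, of the large subunit, had 376, 150 and 358 CPM in SMN libraries, against 128 and 139 CPM in polysomes (log2 fold change 1.44, SE 0.28, edgeR adjusted p = 0.00262), and 314 CPM in IgG. Like Eef1a1, it was lowest among SMN libraries in replicate 2. Rpl35a and Rps2 rose by 1.61 and 1.48 on the log2 scale, and Rps4l fell by 1.53. Ribosomal proteins have many near-identical processed copies, so single members are uncertain.

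Of 17 other TOP messages, 3 rose and 2 fell, shares close to those of all genes. The other lists are shorter, so their counts of 1 or 2 are read as single genes. On the log2 scale Eif4a2, an eIF4A helicase, rose by 1.24 (SE 0.25), Gnb2l1, the ribosomal scaffold RACK1, by 0.96 (SE 0.30) and Vim, the intermediate filament vimentin, by 0.92 (SE 0.29), and the import receptor Ipo7 fell by 0.95 (SE 0.29). Of the elongation list 1 of 4 fell, Eef1e1, a scaffold protein of the tRNA synthetase complex, with 28.9, 52.5 and 29.4 CPM in SMN libraries, against 125 and 116 CPM in polysomes (log2 fold change -1.50, SE 0.33, edgeR adjusted p = 0.00504). Of 11 termination, recycling and rescue factors 2 fell, Gspt2, the second eRF3 gene, by 1.59 (SE 0.40) and Denr, a reinitiation factor, by 1.12 (SE 0.35), with the list median at -0.49. The mitochondrial elongation factor Tufm, 1 of 2 tested, rose by 0.72 (SE 0.25), and Pabpn1, the nuclear poly(A)-binding protein, 1 of 7 of its list, rose by 1.12 (SE 0.31). The IgG library held 150 CPM of Eif4a2, 450 of Gnb2l1, 276 of Vim, 145 of Tufm and 145 of Pabpn1. Their SMN means were 163, 357, 393, 142 and 71.9 CPM in the same order. These counts shifted with the SMN libraries, as 64 list genes were called without SMN replicate 2, 11 without replicate 1 and 5 without replicate 3, against 39 with all libraries. Calls over all genes shifted too, from 1062 higher and 719 lower of 6484 with all libraries. Without SMN replicate 2 they were 1755 and 1593 of 10996. They were 441 and 154 of 10929 without replicate 1, and 376 and 91 of 10827 without replicate 3. All list genes lost their calls without either polysome library, which leaves 1 library in that group.

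**Figure D4:**
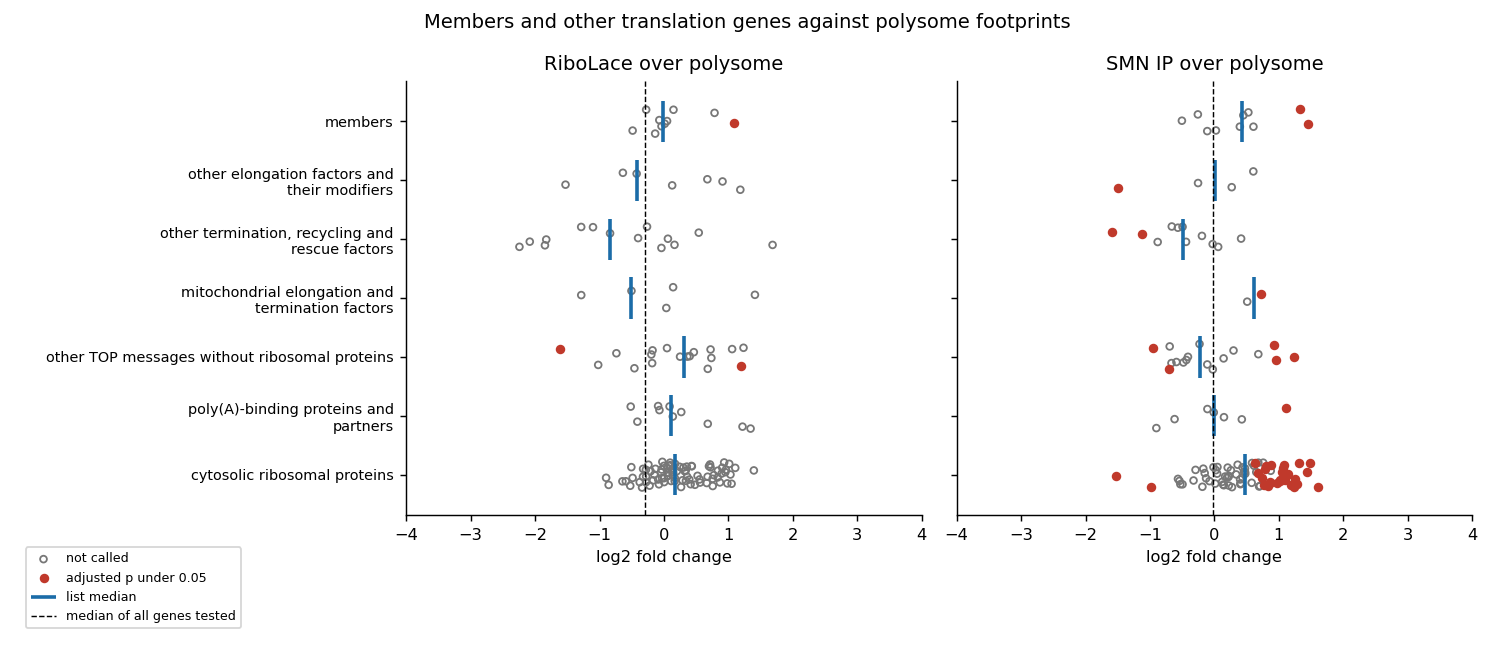
Log2 fold change over polysomes of the 10 genes (members) and of 6 lists of other translation genes, for RiboLace and for SMN immunoprecipitates. Points are genes, filled where edgeR adjusted p is under 0.05, blue lines are list medians and the dashed line is the median of all genes tested; 5 RiboLace points below -4, genes without a RiboLace read, lie outside the axis.

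Across the 8 libraries, Eef2 lay closer in profile to Eef1a2 than to Eef1a1. The genes closest to Eef1a1, by root mean square distance of centred log2 CPM among 1667 other genes, were Tcaf1 at 0.15, the chaperone Hspa8 at 0.16 and the G-protein subunit Gnb1 at 0.19. Those closest to Eef1a2 were Rab6b at 0.085, Clstn1 at 0.12 and Rbbp4 at 0.13, and those closest to Eef2 were the fatty acid synthase Fasn at 0.089, the calcium channel subunit Cacna1a at 0.11 and Lrp1 at 0.15. Eef1a2 lay 0.70 from Eef1a1 and was 590th in order of closeness, and Eef2 lay 0.63 from Eef1a1 and was 467th. From Eef2, Eef1a2 lay 0.42 away and was 195th. Median distances over all compared genes were 0.79 from Eef1a1, 0.50 from Eef1a2 and 0.68 from Eef2. Among SMN libraries, replicate 2 was lowest for Eef1a1 and its 3 closest genes. It was highest for Eef1a2, Eef2 and the genes named as closest to each. The part of that library in these distances was not tested. Profiles of 8 libraries in 4 groups share depth and protocol, so these distances are descriptions.

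**Figure D5:**
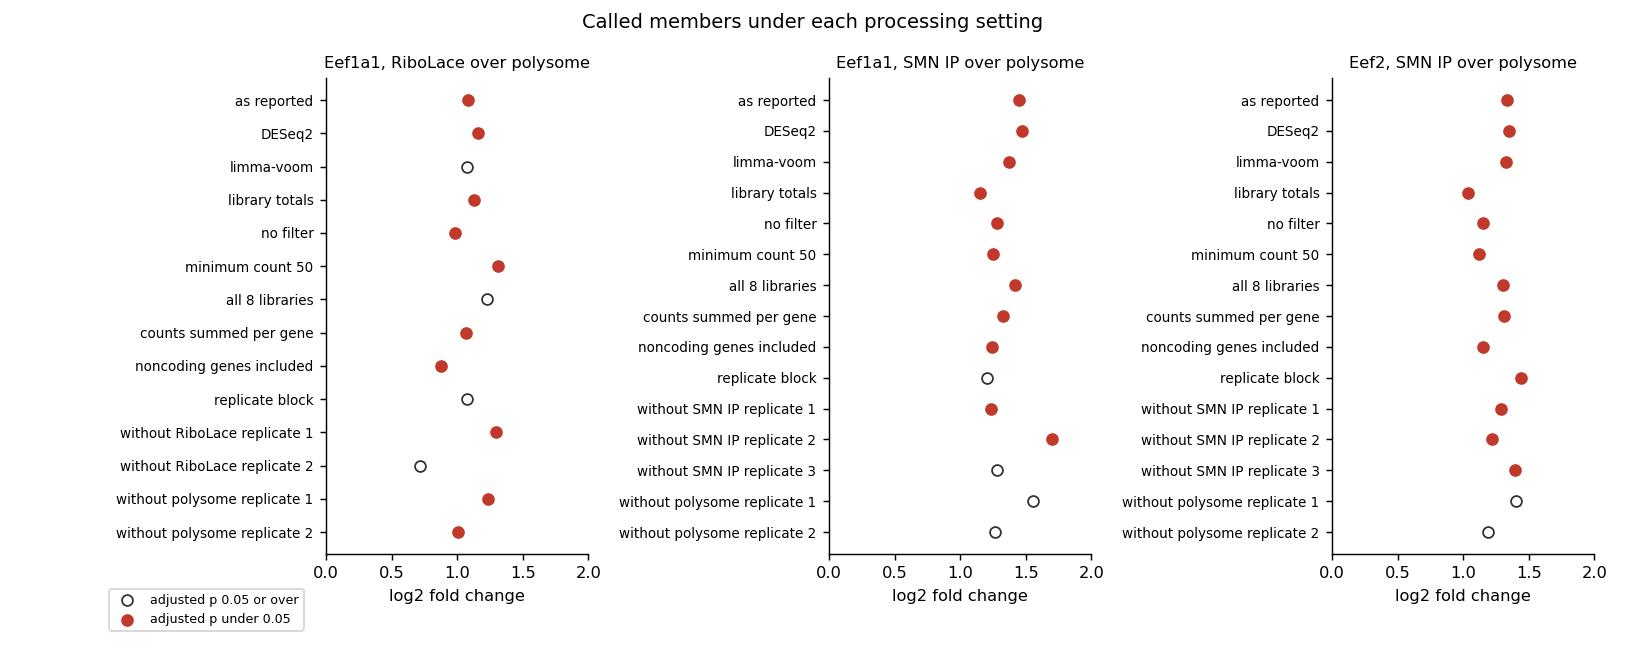
Log2 fold change of the called genes under each processing setting, Eef1a1 in RiboLace over polysome, Eef1a1 in SMN immunoprecipitate over polysome and Eef2 in SMN immunoprecipitate over polysome. Filled points have an adjusted p under 0.05; every value stays above 0, and Eef1a1 in RiboLace is lowest, at 0.72, without RiboLace replicate 2.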

How the data were processed

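Ribosome-protected fragments were measured in 8 mouse brain libraries. The authors deposited raw read counts per Ensembl transcript with coding and transcript lengths, per the file headers. Trimmomatic 0.36, Bowtie2 2.2.6, SAMtools and the GRCm38.p4 build are named in the submitters' processing notes. Counts for a gene's most covered protein-coding transcript were tested by edgeR 4.0.16 (R 4.3.3; robust quasi-likelihood fit, TMM, minimum count 10, Benjamini-Hochberg over all genes tested, two-sided, adjusted p under 0.05) on the groups compared only. The SE is the log2 fold change over the square root of F. Scripts were tested on simulated data with 100 changes of 2-fold and 100 of 4-fold per comparison. The fit recovered 1 and 24 of them in SMN over IgG, and 7 and 28 in RiboLace over polysomes. In SMN over polysomes it recovered 61 and 90. CPM are not TMM-scaled; fold changes are. Named are the 10 genes, up to 4 called genes of each list by fold (if none is called, the 1 with the smallest p), the 3 nearest profiles of 3 genes (mean log2 CPM of at least 7, prior count 2) and pseudogenes of the genes' names. The genes, lists and tests were chosen with earlier results of these data known. Alternatives were DESeq2 1.42.0, limma-voom (limma 3.58.1), library totals, other filters, all 8 libraries, summed counts, noncoding genes, the replicate number as a block and each library left out. Python 3.11.15 with pandas 2.3.3, scipy 1.17.1 and matplotlib 3.10.9 served for the rest.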

Additional observations from a re-analysis of the deposited data

How the results depend on the processing

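Of the 10 genes, 1 was called higher in RiboLace over polysomes, and 0 with limma-voom, with all 8 libraries in the fit and with the replicate block (adjusted p for Eef1a1 0.147), 0 to 1 when leaving out a library. In SMN over polysomes 2 were called higher, 1 with the replicate block (Eef1a1 adjusted p = 0.0545) and 0 to 5 when leaving out a library; 0 were called lower, 1 with library totals and 0 to 1 when leaving out a library. The block changed no other call of the 10. The labels link the libraries only by replicate numbers. Deviations of same-numbered libraries correlated at -0.000394 (RiboLace and polysomes) and 0.000436 (SMN and polysomes), over 6243 genes. Many of these genes had few RiboLace reads, where 3 counts are 62.7 to 76.2 CPM. The RiboLace correlation therefore cannot show whether the libraries were paired. Of genes on the other lists, 2 were called in RiboLace over polysomes, 0 with limma-voom, 1 without a filter, 10 with minimum count 50, 0 with all 8 libraries, 7 with summed counts, 7 with noncoding genes, 0 with the replicate block and 0 to 2 when leaving out a library. In SMN over polysomes 39 were called, 21 with DESeq2, 6 with minimum count 50 (19 genes tested), 12 with summed counts, 3 with the replicate block and 0 to 64 when leaving out a library. Over all genes, calls in RiboLace over polysomes ranged from 0 to 723 higher and 0 to 562 lower beside 142 and 100 (DESeq2 179 and 5), in SMN over polysomes from 103 to 1921 higher and 38 to 1593 lower beside 1062 and 719. In SMN over IgG they ranged from 0 to 2 higher and 0 to 3 lower. A block was not possible there because the groups share 1 number. The Eef1a2 share moved to 20.1% in IgG and 39.8% in polysomes with summed counts and to 50.3% in polysomes with transcript length; the ratio of highest to lowest gene moved to 60.2 in SMN, 59.9 in IgG, 43.0 in RiboLace and 25.3 in polysomes with transcript length. With the C within 5 bases of the annotated start, on either side, 1 gene had a pyrimidine tract, against 0 with the C at the start.

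Uncalled log2 fold changes turned sign as follows. In SMN over IgG, Eef1d was 0.0027 with limma-voom, 0.37 with summed counts and 0.065 with noncoding genes, and Etf1 was 0.15 with summed counts and 0.088 with noncoding genes; leaving out a library gave -0.49 to 0.011 for Eef1a1, -0.072 to 0.073 for Eef1d, -0.24 to 0.040 for Eef1g and -0.36 to 0.12 for Etf1. In RiboLace over polysomes, without a filter Eef1a2 was -0.046 and Tpt1 -0.082, with noncoding genes Eef1a2 was -0.16, Eef1b2 -0.057 and Tpt1 -0.19, and with minimum count 50 Eef1g was 0.091, Eef2 0.19 and Gspt1 0.15. Eef2 was also 0.032 with DESeq2, 0.0073 with library totals, 0.093 with all 8 libraries and 0.067 with summed counts, and Gspt1 was 0.059 with all 8 libraries. Leaving out a library gave -0.17 to 0.11 for Eef1a2, -0.26 to 0.33 for Eef1b2, -0.15 to 0.071 for Eef2, -0.47 to 0.33 for Tpt1 and -0.72 to 0.34 for Gspt1. In SMN over polysomes, Eef1b2 was -0.27 with library totals, -0.14 without a filter, -0.0058 with all 8 libraries, -0.18 with noncoding genes and -0.32 with the replicate block, and -0.35 to 0.14 when leaving out a library. The cause of these changes was not tested. In RiboLace, only Eef1a1, Eef1a2 and Eef2 of the 10 had over 10 reads in each library. Genes that stricter filters left out have no value there.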
